A study of Mus musculus with 20 samples.

Results

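Glutathione transferases of the mu class (Gstm1 to Gstm7) and the theta class (Gstt1 to Gstt3) were followed in RNA recovered with iron regulatory protein 2 (IRP2) from 5 mouse tissues. All probe sets annotated to these 10 genes were taken, which gave 15 of the 45101 probe sets of the Affymetrix Mouse Genome 430 2.0 array. Of these, 14 passed the filter on dim probe sets, which required a value at or above the array's own median on at least 2 of the 20 arrays. The probe set that did not pass was 1427473_at of Gstm3, which stayed below the median on every array. Gstm1 had 4 probe sets, Gstm3 and Gstm7 had 2 each, and the other genes had 1 each. The genes were chosen by their IRP2-to-control differences on these same arrays, on which Gstm6 and Gstt3 were already known to be higher with IRP2, so these differences are given as a description.

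Glutathione transferases couple the tripeptide glutathione to electrophilic compounds, which makes foreign chemicals and products of lipid peroxidation easier to export. The mu and theta classes are cytosolic, and both are prominent in liver. IRP2 binds hairpins called iron-responsive elements (IREs) that lie outside the coding part of certain transcripts, among them those of ferritin and of the transferrin receptor. According to the iron supply of the cell, it thereby sets how well these transcripts are translated or how long they last.

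Each tissue was represented by pooled total RNA of wild-type C57BL6/J mice of both sexes. Duodenum, liver and spleen came from 4 mice per pool, fed for 21 days from weaning on a diet holding less than 10 mg of iron per kg. Bone marrow and brain came from 6 mice per pool, aged 8 to 10 weeks and kept on an iron-normal diet, so tissue and diet cannot be told apart across these sets. In the IRP2 reaction, 50 µg of pooled RNA was mixed with recombinant IRP2 made in E. coli with a His tag, and bound RNA was pulled down through an anti-tag antibody. The control reaction ran in parallel without IRP2, and each tissue had 2 arrays of each reaction. The binding was therefore to purified RNA outside the cell, and whether the replicates came from separate pools is not given in the labels, so p-values measure the spread between arrays, which may be technical.

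Values are log2 levels of a probe set, and a ratio is the IRP2 level minus the control level on that scale, so that a ratio of 1 is a doubling. A probe set was called at a Benjamini-Hochberg adjusted p under 0.05 in limma, adjusted over the 30153 probe sets tested. Levels of different probe sets are not set against each other, because each hybridises with its own efficiency.

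Before the results, 3 features of the arrays need to be stated. The array medians lay between 5.65 and 5.71 for duodenum, liver and brain replicate 1, and between 5.39 and 5.55 for spleen, bone marrow and brain replicate 2. The brain arrays of different replicate number therefore lay far apart. Bone marrow control replicate 1 resembled spleen more than the other bone marrow arrays did, with a mean Spearman correlation to the spleen arrays of 0.955 against 0.915 to 0.917. On the brightest probe set of each marker gene, the tissue labels were borne out by 4 of 4 markers of duodenal epithelium, 4 of 4 of liver, 3 of 4 of spleen lymphocytes, 5 of 5 of bone marrow myeloid cells and 3 of 5 of brain. The brain markers that failed were Gfap and Mbp. On the probe set with the widest range over tissues, a choice made after that result was seen and one that favours a peak in some tissue, 5 of 5 brain markers were highest in brain and the other counts were the same. Markers of pancreatic acinar cells had a median level of 11.8 in duodenum and 8.37 in spleen. Their median ratio in duodenum was 0.16 with 0 of 4 probe sets called, and their part in the results below was not tested.

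Gstm6 encodes a mu-class transferase and lies, in the RefSeq table of GRCm38.p6, between Gstm7 and Gstm3 in an unbroken row of the 7 Gstm genes. Its only probe set, 1422072_a_at, carries the suffix for a set that matches alternative transcripts of 1 gene, and the table lists 8 curated transcripts of Gstm6 against 1 or 2 for each other gene studied here. In duodenum it read 5.11 and 5.78 in the control arrays and 7.91 and 8.02 in the IRP2 arrays. In liver it read 6.59 and 6.39 in the controls and 9.21 and 9.02 with IRP2. Both IRP2 arrays lay above both controls in these tissues, by more than the controls differed from each other.

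**Figure D1:**
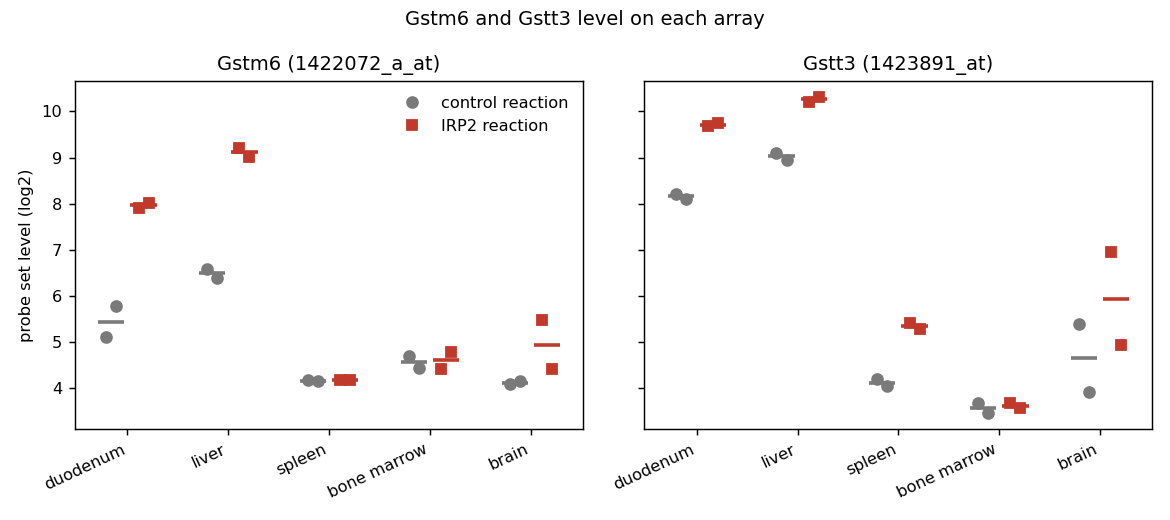
Log2 level of the Gstm6 and Gstt3 probe sets (vertical axis) on each of the 20 arrays, by tissue (horizontal axis); grey circles are control reactions, red squares IRP2 reactions, and horizontal bars the mean of 2 arrays. Gstm6 rises from 5.45 to 7.96 in duodenum and from 6.49 to 9.11 in liver and stays near 4.2 in spleen, whereas Gstt3 is also higher with IRP2 in spleen.

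In spleen Gstm6 read 4.19 and 4.15 in the controls and 4.19 and 4.19 with IRP2. In bone marrow it read 4.71 and 4.44 in the controls and 4.42 and 4.79 with IRP2. In brain it read 4.10 and 4.15 in the controls and 5.48 and 4.42 with IRP2. The reactions overlapped in spleen and bone marrow, and in brain both IRP2 arrays were higher, with a wider gap between them than between the lower one and the controls. The control means in these tissues, 4.17, 4.57 and 4.12, lay below the 10th percentile of tested probe sets there (4.55, 4.64 and 4.86), and whether such low levels bear on the ratios was not tested.

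The ratio of Gstm6 was 2.52 ± 0.30 (SE, n = 2 per reaction) in duodenum, a fold of 5.73, with replicate pairs at 2.79 and 2.24. It was 2.62 ± 0.30 in liver, a fold of 6.16, with pairs at 2.62 and 2.63. These were the seventh and the fourth highest ratios of all tested probe sets in the respective tissue. The ratio was 0.02 in spleen, 0.03 in bone marrow (pairs at -0.29 and 0.35) and 0.82 in brain (pairs at 1.38 and 0.27), each with the same SE. Averaged over tissues it was 1.20 ± 0.13, and 8 of 10 pairs lay above 0. With limma, the adjusted p was 0.00208 in duodenum, 0.00194 in liver and 0.00015 for the mean. These p-values describe a gene chosen for this contrast and are no independent support.

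Gstt3 encodes a theta-class transferase and neighbours Gstt1 in the RefSeq order, with Gstt4 and Gstt2 beyond it. In duodenum its probe set 1423891_at read 8.21 and 8.11 in the controls and 9.68 and 9.75 with IRP2. In liver it read 9.11 and 8.95 in the controls and 10.20 and 10.32 with IRP2. In spleen it read 4.20 and 4.04 in the controls and 5.42 and 5.28 with IRP2. In these 3 tissues both IRP2 arrays lay above both controls, and the pairs differed by 1.10 to 1.64.

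In bone marrow Gstt3 read 3.69 and 3.46 in the controls and 3.67 and 3.58 with IRP2, and the reactions overlapped. In brain it read 5.40 and 3.92 in the controls and 6.95 and 4.94 with IRP2. The brain reactions overlapped too, because replicate 2 was lower than replicate 1 in both, although each IRP2 array was above the control of its own number. As for Gstm6, the control means in spleen, bone marrow and brain (4.12, 3.58 and 4.66) lay below the 10th percentile of tested probe sets there, and in spleen the IRP2 arrays were higher from that level.

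The ratio of Gstt3 was 1.55 in duodenum (pairs at 1.47 and 1.64), 1.23 in liver (1.10 and 1.36), 1.24 in spleen (1.23 and 1.24), 0.05 in bone marrow (-0.02 and 0.12) and 1.28 in brain (1.55 and 1.02), each ± 0.48 (SE, n = 2 per reaction). The mean was 1.07 ± 0.22, a fold of 2.10, with 9 of 10 pairs above 0 and an adjusted p of 0.0442 with limma. The SE is set largely by the brain arrays: without them it was 0.16 per tissue, and Gstt3 was called in duodenum, liver and spleen. With the replicate number as a block, which compares each IRP2 array with the control of its own number, the SE per tissue was also 0.16. The adjusted p with the block was 0.000592 for duodenum, 0.00545 for liver, 0.00348 for spleen, 0.00313 for brain and 2.56e-06 for the mean.

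Counted over the 14 tested probe sets, Gstm6 and Gstt3 were called higher on the mean over tissues, where 0.365% of all tested probe sets were. In duodenum 1 (Gstm6) was called against 0.073% of all, in liver 1 (Gstm6) against 0.0332%, and in spleen, bone marrow and brain 0, against 0.063%, 0.00995% and 0.0597%. None was called lower on the mean or in any tissue, against 0.00663% of all on the mean, 0.00332% in brain and 0% elsewhere. Because this contrast chose the genes, nothing is read from these shares. With the replicate block the counts were 2 in duodenum and liver, 1 in spleen and brain and 0 in bone marrow, against 0.282%, 0.206%, 0.292%, 0.139% and 0.378% of all.

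The mu-class paralogs did not show the rise of Gstm6. Their 11 probe sets had ratios between -0.22 and 0.31 in duodenum and between -0.25 and 0.02 in liver. Gstm6 exceeded the highest of them by 2.20 in duodenum and by 2.60 in liver, and lay within their range in spleen and bone marrow. In brain its mean exceeded theirs by 0.68, but the ratio was not called. Brain pair 1 stood at 1.38, whereas pair 2, at 0.27, lay within the paralogs' pair ratios, which reached 0.49. Gstm7 and Gstm3, the neighbours of Gstm6 on the chromosome, had mean ratios of -0.08 and -0.09 on the Gstm7 sets and 0.01 on the tested Gstm3 set, 1427474_s_at. That Gstm3 set carries the suffix for probes shared by several transcripts of a gene family.

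**Figure D2:**
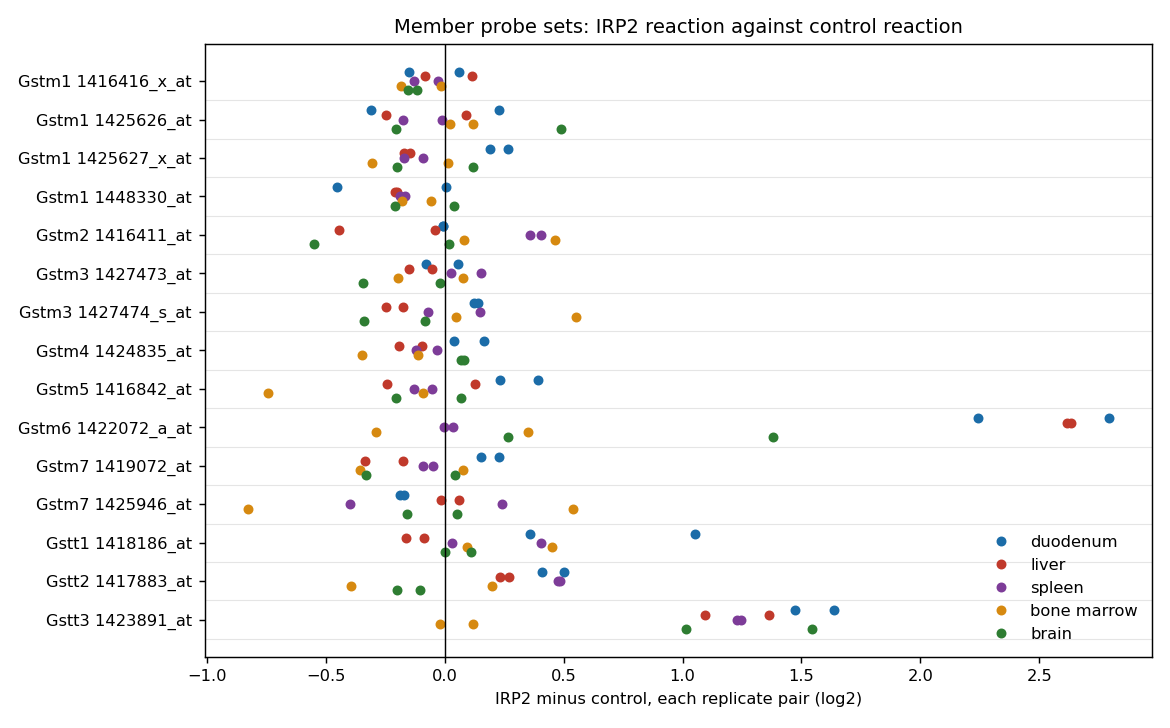
IRP2 minus control (log2, horizontal axis) of each replicate pair for the 15 probe sets (vertical axis), coloured by tissue, with 2 points per tissue. Gstm6 in duodenum and liver lies to the right of all other probe sets, and Gstt3 lies at 1.02 or above in every tissue but bone marrow, while 124 of the 130 pair ratios of the remaining sets lie within 0.5 of 0 and 1, of Gstt1 in duodenum, reaches 1.05.

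The mean ratios of the 4 Gstm1 sets were -0.07, 0.00, -0.05 and -0.16, that of Gstm2 was 0.03, that of Gstm4 was -0.05 and that of Gstm5 was -0.06. Gstm1 is the abundant mu-class enzyme of mouse liver, and sets of it with the _x_at suffix hold probes that can cross-hybridise. The untested Gstm3 set had a mean ratio of -0.05. All of these sets had pairs on either side of 0.

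On the mean over tissues the theta-class paralogs lay between the mu-class paralogs and Gstt3, at 0.23 for Gstt1 and 0.19 for Gstt2, neither called. This did not hold in each tissue. Gstt1 read 9.09 and 9.92 in the duodenal controls and 10.14 and 10.28 with IRP2, a ratio of 0.71 with pairs at 1.05 and 0.36, adjusted p = 1.0 with limma and 0.247 with the replicate block. In liver its ratio was -0.12. Gstt2 had ratios of 0.45 in duodenum, 0.25 in liver and 0.48 in spleen, none of them called. Gstt3 exceeded the higher of Gstt1 and Gstt2 by 0.85 in duodenum, 0.98 in liver, 0.76 in spleen and 1.22 in brain, whereas in bone marrow its 0.05 lay below the 0.27 of Gstt1.

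Of the 130 pair ratios of the 13 probe sets other than those of Gstm6 and Gstt3, 3 were above 0.5 and 3 below -0.5, and 3 of these 6 came from bone marrow pair 1. That pair had the widest spread over all probe sets, an SD of 0.568 against 0.214 to 0.312 in the other pairs. Both IRP2 arrays lay above both controls for 6 of 14 tested sets in duodenum (14.4% of all tested probe sets), 2 in liver (13.9%), 3 each in spleen (15.6%) and bone marrow (14.5%), and 1 in brain (4.21%).

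How unequal the Gstm6 ratios were across tissues was examined with limma's F test. The adjusted p was 0.122 in the fit that called 0.00332% of all probe sets, and 0.0151 with the replicate block, which called 0.0398%. For Gstt3 it was 1.0, and 0.209 with the block.

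The levels in the control reactions were compared between duodenum, liver and spleen, which shared the diet. The genes were not ranked on these tissue differences, but the control arrays also enter the ratios that chose them, so the comparisons are not fully independent of that choice. They measure RNA carried through the precipitation without IRP2, and in whole tissue fewer cells of a type and less RNA per cell cannot be told apart. Between liver and duodenum, 9 of 14 probe sets were higher in liver and 0 lower, where 8.39% of all tested probe sets were higher and 9.11% lower, 17.5% in either direction. The median difference was 1.46, against -0.01 over all tested probe sets. Gstm1 alone gave 4 of the 9 sets, higher in liver by 2.41 to 2.96. Gstm2 was higher by 1.97, Gstt1 by 1.65, Gstm4 by 1.52 and Gstm7 (1419072_at) by 1.40.

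**Figure D3:**
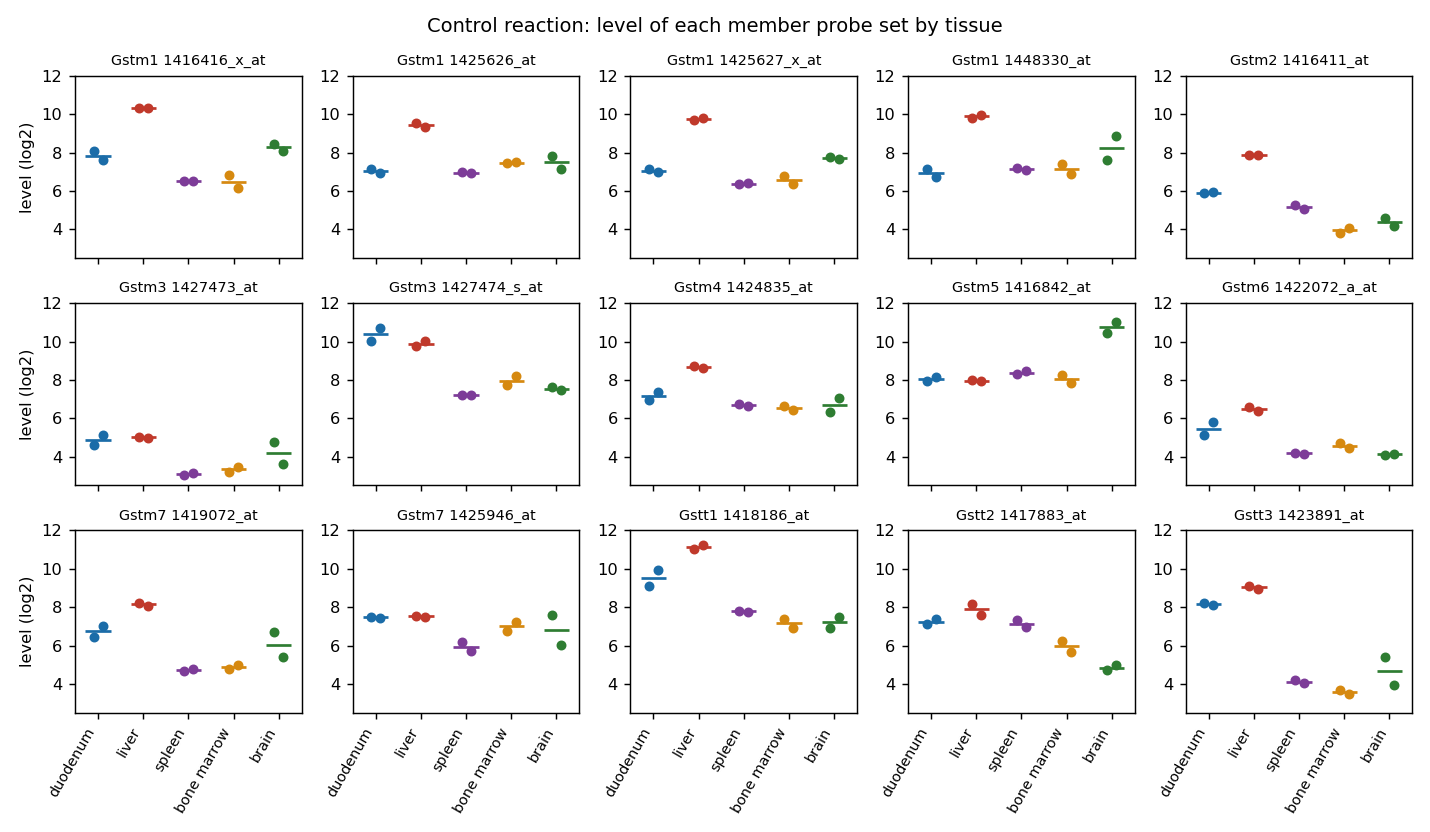
Log2 level in the control reaction (vertical axis) by tissue (horizontal axis) for each of the 15 probe sets; points are the 2 arrays and bars their mean. Liver has the highest mean for 13 of the 15 sets, and Gstm5 is highest in brain, at 10.73. The share of all probe sets highest in liver was not taken and the tissues differ in diet, so nothing is read from the count. It includes all sets of Gstm1. For the untested Gstm3 set 1427473_at and the Gstm7 set 1425946_at, the liver and duodenum arrays overlap.

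Gstm6 was higher in liver than in duodenum by 1.05 ± 0.30 (adjusted p = 0.02 with limma). That call was lost with the replicate block (0.0532) and without duodenum control replicate 1, liver control replicate 1 or liver control replicate 2. The call of the Gstm7 set 1419072_at was lost without any of the same control arrays. Its difference stayed between 1.10 and 1.71 with each array left out. Gstt3 differed by 0.87 ± 0.48 and was not called. Gstm3 (-0.48), Gstm5 (-0.08), Gstt2 (0.64) and the other Gstm7 set (0.05) were not called either.

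Spleen was lower than liver for 13 of 14 probe sets and higher for 0, beside 29.6% lower and 28.3% higher among all tested probe sets, 57.9% in either direction. Gstm6 and the Gstm7 set 1419072_at reached the array median on no spleen array, so they entered through tissues where they are high. Without them 11 of 12 were lower. Gstt3, still among these 12 and called lower, reached the median on 1 spleen array, an IRP2 array, short of the 2 that the filter requires. It too entered through other tissues. Gstm2, also among the 12 and called lower, reached the median in spleen on the 2 IRP2 arrays only. Its spleen controls, at 5.27 and 5.07, lay below their array medians of 5.39. The 11 of 12 is therefore not free of this. Gstt3 was lower in spleen, at 4.12 against 9.03 in liver, and so was Gstm6, at 4.17 against 6.49. Both spleen levels lie below the 10th percentile of tested probe sets (4.55), so the sizes of these gaps are uncertain and no fold is given. Gstm5, a mu-class form known from brain and testis, was the exception at 0.41 higher, not called.

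Against duodenum, spleen was lower for 9 and higher for 0, beside 28.2% lower and 26.6% higher among all, 54.8% in either direction. Without the same 2 sets, but with Gstt3 and Gstm2, 7 of 12 were lower. Gstm3 (1427474_s_at) differed by -3.14 ± 0.27, and Gstt3, low in spleen as stated, was called lower too. Spleen arrays lie in the lower range of array medians. After centring the medians, the count against duodenum was 7, without Gstm2 and the Gstm1 set 1425627_x_at, and that against liver was 12, without Gstt2. After quantile normalization the counts were 8, without Gstm2, and 13. No called difference turned direction under either.

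For Gstm6, liver (6.49) stood above duodenum (5.45), and bone marrow, spleen and brain (4.57, 4.17 and 4.12) all lay below the 10th percentile of tested probe sets, so no order is read among them. For Gstt3, liver (9.03) likewise stood above duodenum (8.16), a difference that was not called, and brain, spleen and bone marrow lay below that percentile. Gstm5 was led by brain at 10.73, with the other tissues between 7.96 and 8.37.

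The other genes of glutathione chemistry were counted in the same fit. Of the other transferases (alpha, pi, omega and further classes), 14 probe sets of 12 genes were tested, 0 were called in any tissue or on the mean by either fit, and the median mean ratio was -0.06 against -0.02 over all tested probe sets. Of the enzymes that make, reduce or use glutathione, 30 probe sets of 18 genes were tested and 0 were called on the mean. With the replicate block 1 was, Oplah (5-oxoprolinase, which returns glutamate to glutathione synthesis), at a mean ratio of 0.37. Among all tested probe sets, 0.365% were called higher on the mean, and 1.07% with the block. Counts of 0 or 1 in lists this small therefore carry no result about the lists. Named for the highest or lowest values of single probe sets, and none of them called, were Gpx2 (a glutathione peroxidase of gut epithelium), Gss (glutathione synthetase), Glrx (glutaredoxin) and Glo1 (glyoxalase). Gpx2 had 0.24 on its set. Gss had 0.20 and 0.10 on its sets, Glrx had -0.23 on the tested set and -0.01 on an untested one, and Glo1 had between -0.18 and -0.05 on 4 sets.

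**Figure D4:**
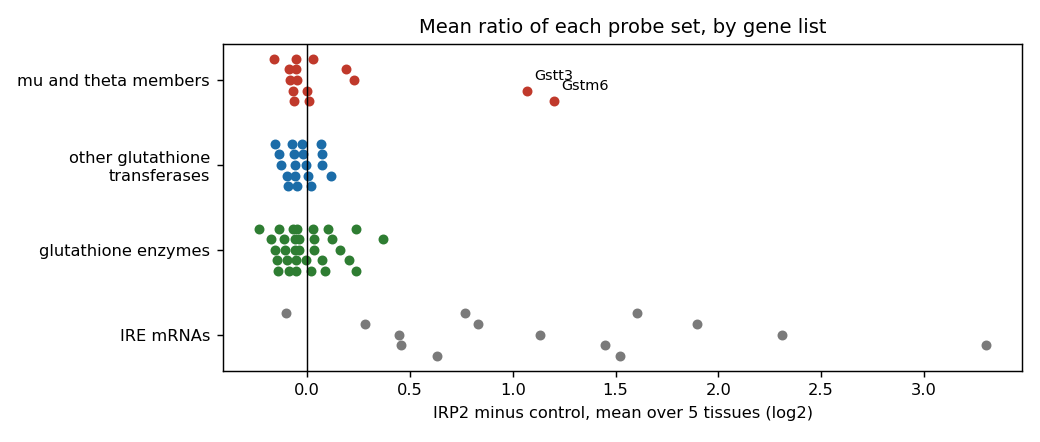
IRP2 minus control averaged over 5 tissues (log2, horizontal axis) for each probe set of 4 gene groups (rows), tested or not. Vertical offsets only separate points. Gstm6 at 1.20 and Gstt3 at 1.07 lie within the range of the IRE mRNAs, -0.10 to 3.30 with a median of 0.98. They lie apart from the other transferases and glutathione enzymes. Both were chosen on these ratios, so their place is a description and no result.

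As a reference for the size of these ratios, 14 probe sets of 6 genes with known IREs had a median mean ratio of 0.98. Of these, 9 were called higher on the mean, against 0.365% of all tested probe sets. Some of the 6 genes had several sets. The leading set of Tfrc, the transferrin receptor, had its lowest ratio in liver, at 2.68, and its highest in spleen, at 4.09. It had 3.61 in duodenum, 3.05 in bone marrow and 3.08 in brain. Another Tfrc set was likewise lowest in liver, at 0.79, and highest in spleen, at 3.72. The remaining Tfrc set was instead highest in liver, at 2.78, against 1.46 in spleen, and lowest in bone marrow, at 0.92. The tissue order of Tfrc thus depended on the probe set. Beside these Tfrc ratios, Gstm6 stood at 2.62 in liver and at 0.02 in spleen, where its control level was low.

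Genes with the pattern most like that of Gstm6 were ranked by the root mean square difference over the 10 pair ratios, among 14862 genes. Each gene was entered only with its leading probe set, the one with the highest mean ratio. The nearest were Dhx9 (0.915, an RNA helicase), Trim12c (0.917), Slc11a2 (0.946, an iron transporter), Csf2rb (0.966, a cytokine receptor subunit) and Lpl (1.01, lipoprotein lipase). None was close, since the ratios of Gstm6 themselves have a root mean square of 1.70. On these sets all 5 had spleen ratios of 0.70 or more, where Gstm6 had 0.02. Other sets of the same gene can differ. Slc11a2 had a mean ratio of 1.45 on its leading set, and -0.10, 0.28 and 0.63 on the others.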

How the data were processed

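The deposited log2 probe set levels of 20 arrays were used as the authors gave them. Per the series' design text, intensities came from RMA in Bioconductor or from MAS5 in GCOS with quantile normalization. The sources used here do not give which of these made the table, and the separate ranges of array medians leave it probable that the arrays were not normalized in 1 run. The array number limits the precision. The 64 Affymetrix controls were left out, and 30153 of 45101 probe sets were tested. Limma 3.58.1 in R 4.3.3 was fitted with a mean for each of 10 groups (10 residual degrees of freedom, prior 5.34), with Benjamini-Hochberg adjustment, and was tested on simulated data. Contrasts were IRP2 minus control per tissue and on their mean, an F test of equal ratios, and control levels between 3 tissues.

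Arrays of the same replicate number deviated together from their group means, with correlations of 0.676, 0.565, 0.385, 0.251 and 0.923 in duodenum, liver, spleen, bone marrow and brain. They were therefore also fitted as pairs with a replicate block, a pairing that rests on these values and on the controls having run in parallel.

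The genes and lists were chosen with earlier results of these data known. By the naming rule, every probe set of the 10 genes was accounted for, with array values for those called, 5 genes nearest to Gstm6, up to 6 members of the glutathione list, and Tfrc. Symbols were those of the platform annotation, and all 10 matched RefSeq by gene ID. Alternatives covered the filter, normalization, variance trend, block, each array left out and, added later, brain or bone marrow left out.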

Additional observations from a re-analysis of the deposited data

Results flagged for a closer look

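Gstm6 1422072_a_at was singled out because its IRP2-to-control ratios differed between tissues by limma's F test with the replicate block (adjusted p = 0.0151). Without the block the adjusted p was 0.122. The ratios were 2.52 in duodenum, 2.62 in liver, 0.82 in brain, 0.03 in bone marrow and 0.02 in spleen. The control level was 6.49 in liver and 5.45 in duodenum, and 4.12 to 4.57 in the other tissues. The part of these low levels in the difference was not tested, and the gene was chosen with its ratios known.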

How the results depend on the processing

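No called value changed direction under the alternatives run. Of 66 values of single probe sets, 15 changed sign under some alternative, none of them called and with a size of at most 0.203, among them Gstm6 and Gstt3 in bone marrow and Gstm6 in spleen. The count of probe sets called higher on the mean fell from 2 to 1 with no filter, with the stricter filter of 10 arrays and without the bone marrow arrays, and ranged from 1 to 2 with each array left out. Leaving out any of 17 of the 20 arrays ended the call of Gstt3 on the mean (adjusted p up to 0.137), whereas Gstm6 kept it (up to 0.000941). In duodenum and in liver the count of 1 became 2 with the replicate block or without the brain arrays, and 0 with the stricter filter, under which Gstm6 was not tested. It ranged from 0 to 1 with each array left out, since Gstm6 was lost without duodenum control 1, duodenum IRP2 2, liver IRP2 1 or liver control 2 in its own tissue (adjusted p up to 0.088). The spleen count of 0 became 1 with the block or without brain, and the brain count of 0 became 1 with the block. The bone marrow count was 0 throughout. The block raised the count of glutathione genes from 0 to 1, and the share called higher among all tested probe sets from 0.365% to 1.07%. Control-level counts with each array left out were 7 to 9 (liver against duodenum), 6 to 9 (spleen against duodenum) and 11 to 13 (spleen against liver). The causes were not tested. Mean control levels of Gstm6 and Gstt3 in spleen, bone marrow and brain are low, and their effect on the ratios was not tested. For Gstt3 in brain this holds for the mean but not for control replicate 1, at 5.40.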
